A study of Mus musculus with 7 samples.

Results

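The imprinted growth regulators H19, Dlk1, Meg3, Peg3, Mest, Plagl1, Grb10, Ndn, Nnat and Sgce were followed in the mouse uterus. They were chosen by gene symbol, and all 10 are listed among the 24964 symbols of the deposited table. RNA sequencing was done on whole uterus from 12-week-old mice, all taken at diestrus, when the cycling uterus is at rest. The control group holds 3 libraries of genotype Pgrcre/+, numbered 1, 2 and 4. The other group holds 4 libraries of genotype Pgrcre/+Foxl2LsL/+, numbered 1 to 4 and called Foxl2LsL here. All 7 libraries therefore carry the Pgrcre allele, in which Cre recombinase is made wherever the progesterone receptor gene is active, and which occupies 1 copy of that gene. The title of the study is about raising FOXL2, a transcription factor of the forkhead family, and the comparison asks how the uterus differs between these genotypes.

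An imprinted gene is read mainly from the copy inherited from 1 parent. Many imprinted genes act on growth, are high in fetal tissues and fall after birth, and a group of them rises and falls together in many tissues and is known as the imprinted gene network. Of the genes followed here, H19, Meg3 and, outside the nervous system, Grb10 are read mainly from the maternal copy, and the other members mainly from the paternal copy. The values sum both copies, so they do not show which was read.

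Values are FPKM, fragments counted on a gene, scaled to its length and to the total fragments of the library. The libraries rest on 47800000 to 67200000 fragments, recovered from the values themselves, and 74.4% to 77.5% of them lay on listed genes. Foxl2 itself was at 11.1, 19.3 and 12.9 FPKM in controls 1, 2 and 4 and at 12.7, 14.3, 14.8 and 17.2 FPKM in Foxl2LsL 1 to 4. Its log2 fold change was 0.06 (SE 0.18; limma, adjusted p 0.818), so the table does not show a rise of Foxl2 in the libraries labelled Foxl2LsL, and every direction below is for the labels as they stand. Control 4 stood apart from the other controls on the second principal component, at -31.9 against 25.2 and 8.53, and the 4 Foxl2LsL libraries lay between -10.5 and 10.2. Adipocyte markers summed to 0.173 to 73.1 FPKM in controls and to 2.21 to 202 FPKM in Foxl2LsL libraries, and Ovgp1, an oviduct product, was at 291 FPKM in control 2 against 1.65 to 19.7 FPKM in the other 6 libraries. Nothing in the labels says that the libraries came from separate animals, so p-values measure only the spread between these libraries, which may be technical.

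Grb10, Mest, Plagl1 and Nnat were lower in the libraries labelled Foxl2LsL, and H19 and Sgce were higher. Mest fell the most (5.97-fold lower as a ratio of means), and Grb10, the most abundant of the 10 in controls, was 2.31-fold lower. Ndn, Meg3, Peg3 and Dlk1 did not pass the test. Thus 6 of 10 members passed an adjusted p of 0.05 in limma on log2(FPKM + 1), 2 of them higher and 4 lower. With any 1 library left out, 4 or 5 members passed, 1 or 2 of them higher and 3 or 4 lower: Nnat lost its call without any library but Foxl2LsL 3, and H19 without control 1, control 2, Foxl2LsL 2 or Foxl2LsL 3. Of all 13336 genes tested 40.6% passed, 16.7% higher and 23.9% lower, so passing the test was common in this comparison. In 5 of 10 members the groups did not overlap, against 47.6% of all genes tested. The median log2 fold change of the members was -0.05, as was that of all genes tested, and the median size regardless of direction was 0.46 for the members against 0.27 for all genes. Of the 10, 8 had a mean of at least 1 FPKM over the 7 libraries, the level asked of other genes. Peg3 and Dlk1 lay below it and were tested nonetheless. In bulk tissue, fewer cells of a type and less RNA per cell cannot be told apart.

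**Figure D1:**
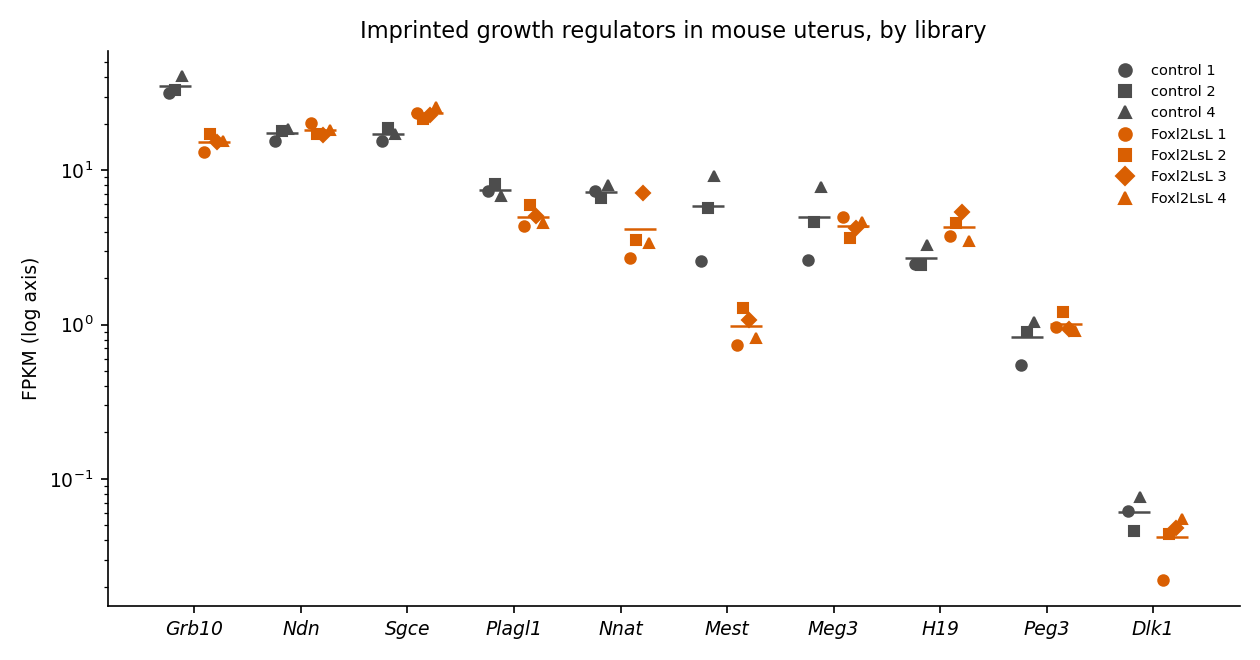
FPKM (log axis) of the 10 imprinted growth regulators in each of 7 libraries, ordered by the control mean, with controls in grey, Foxl2LsL in orange and a bar at each group mean. Grb10, Mest and Plagl1 lie lower in every Foxl2LsL library than in any control, H19 and Sgce lie higher in every one, and Dlk1 stays below 0.1 FPKM throughout.

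In controls the level per length ran from 35.2 FPKM for Grb10 through Ndn (17.4 FPKM), Sgce (17.1 FPKM), Plagl1 (7.44 FPKM), Nnat (7.28 FPKM), Mest (5.83 FPKM), Meg3 (5.01 FPKM), H19 (2.72 FPKM) and Peg3 (0.828 FPKM) to Dlk1 (0.0613 FPKM). The ranges of the controls overlapped between neighbours in this order for Ndn and Sgce and along the run from Plagl1 to H19. Grb10 lay above Ndn in every control. In Foxl2LsL libraries Sgce (23.3 FPKM) came first, above Ndn (18.2 FPKM) without overlap, and Grb10 (15.3 FPKM) came next with a range that overlapped that of Ndn. The sum of the 10 was 85.7, 98.2 and 113 FPKM in controls 1, 2 and 4 and 74.3, 76.0, 78.9 and 77.2 FPKM in Foxl2LsL 1 to 4. Grb10 made up 35.6% of this sum in controls on average and 19.9% in Foxl2LsL libraries.

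Grb10 encodes an adaptor protein that binds the activated insulin and IGF1 receptors and dampens their signal (chromosome 11, 11930508 to 12038683, minus strand, GRCm38). It was at 31.8, 33.1 and 40.8 FPKM in controls 1, 2 and 4 and at 13.1, 17.2, 15.3 and 15.5 FPKM in Foxl2LsL 1 to 4. Every control lay above every Foxl2LsL library by a wide margin. The means were 35.2 ± 4.86 FPKM (SD) over 3 controls and 15.3 ± 1.69 FPKM (SD) over 4 Foxl2LsL libraries, a log2 fold change of -1.15 (SE 0.12; limma, adjusted p 0.000552). An exact permutation test (two-sided) gave p 0.0571, the smallest that 3 against 4 libraries allow. Between 4190 and 13803 fragments lay on the gene in each library, so counting error adds little. Its call held under all 16 alternatives, with log2 fold changes between -1.25 and -1.05. Next to Grb10, Cobl, which encodes an actin nucleator, was at 9.60 ± 1.92 and 13.3 ± 4.16 FPKM and did not pass (log2 fold change 0.40; limma, adjusted p 0.208).

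RefSeq gives Grb10 a pair of start sites in GRCm38.p6, and they are shown because imprinted genes often start from CpG-rich sequence and because the gene-level FPKM does not tell starts apart. The 250 bases before each start are printed 5′ to 3′ with every CpG in capitals. The upstream start has 40 CpGs, more than 98.7% of the 32841 promoter windows in the table, and the downstream start has 8, against a median of 6 over all windows.
Grb10, upstream start (chr11:12037421-12037670, minus strand): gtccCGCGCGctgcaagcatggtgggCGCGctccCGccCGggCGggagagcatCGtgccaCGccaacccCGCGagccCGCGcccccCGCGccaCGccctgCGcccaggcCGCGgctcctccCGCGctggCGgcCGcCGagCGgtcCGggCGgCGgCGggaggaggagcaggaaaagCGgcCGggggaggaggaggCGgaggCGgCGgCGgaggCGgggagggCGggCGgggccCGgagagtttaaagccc
Grb10, downstream start (chr11:12027972-12028221, minus strand): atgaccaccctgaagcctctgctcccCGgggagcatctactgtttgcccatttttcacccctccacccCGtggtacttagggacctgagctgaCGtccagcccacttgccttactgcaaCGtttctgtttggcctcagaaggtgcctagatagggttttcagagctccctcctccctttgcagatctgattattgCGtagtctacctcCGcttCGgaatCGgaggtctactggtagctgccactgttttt

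Mest encodes an enzyme of the alpha/beta hydrolase family found in the endoplasmic reticulum and is linked to the expansion of fat cells and to fetal growth (chromosome 6, 30723547 to 30748465, plus strand). It was at 2.57, 5.72 and 9.19 FPKM in controls 1, 2 and 4 and at 0.736, 1.27, 1.07 and 0.822 FPKM in Foxl2LsL 1 to 4. The controls were uneven, with control 4 highest and control 1 lowest, and even control 1 lay above every Foxl2LsL library. The means were 5.83 ± 3.31 FPKM (SD) over 3 controls and 0.976 ± 0.244 FPKM (SD) over 4 Foxl2LsL libraries, a log2 fold change of -1.67 (SE 0.32; limma, adjusted p 0.00528; two-sided exact permutation p 0.0571). On the fragments recovered from the table, with no pseudocount of 1 to compress low values, limma-voom gave -2.44 (adjusted p 0.00809). Copg2, which encodes a coat protein of transport vesicles and runs against Mest with 912 bases of overlap at their 3′ ends, did not pass: it was at 11.4 ± 0.512 and 11.8 ± 0.638 FPKM (log2 fold change 0.05; limma, adjusted p 0.584).

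Mest has 3 starts in the table, a pair of them 3 bases apart. The starts shown differ in CpG content, with 7 CpGs before the upstream start and 14 before the downstream one, and the capitals again mark CpGs.
Mest, upstream start (chr6:30733256-30733505, plus strand): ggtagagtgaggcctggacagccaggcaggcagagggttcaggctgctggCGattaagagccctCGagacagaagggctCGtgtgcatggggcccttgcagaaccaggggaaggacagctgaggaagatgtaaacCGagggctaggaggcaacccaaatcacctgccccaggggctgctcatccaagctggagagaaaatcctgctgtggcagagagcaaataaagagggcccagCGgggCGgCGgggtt
Mest, downstream start (chr6:30737800-30738049, plus strand): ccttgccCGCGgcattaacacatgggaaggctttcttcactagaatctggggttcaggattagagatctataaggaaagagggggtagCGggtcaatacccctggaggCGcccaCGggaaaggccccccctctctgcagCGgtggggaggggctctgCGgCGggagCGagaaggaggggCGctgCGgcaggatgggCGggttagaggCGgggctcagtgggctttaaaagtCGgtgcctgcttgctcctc

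Plagl1, also called Zac1, encodes a zinc finger transcription factor reported to switch on other genes of the imprinted network (chromosome 10, 13060504 to 13131694, plus strand). It was at 7.38, 8.09 and 6.85 FPKM in controls 1, 2 and 4 and at 4.37, 5.97, 5.06 and 4.55 FPKM in Foxl2LsL 1 to 4. The groups did not overlap, and the nearest libraries were control 4 and Foxl2LsL 2. From 7.44 ± 0.623 FPKM (SD) over 3 controls the mean fell to 4.99 ± 0.718 FPKM (SD) over 4 Foxl2LsL libraries, a log2 fold change of -0.50 (SE 0.11; limma, adjusted p 0.00931; two-sided exact permutation p 0.0571). Plagl1 kept its call under all 16 alternatives, the highest adjusted p being 0.0405 (limma, without control 2).

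Nnat encodes neuronatin, a small membrane proteolipid of the endoplasmic reticulum known from brain, pancreas and fat (chromosome 2, 157560078 to 157562522, plus strand). It was at 7.30, 6.57 and 7.97 FPKM in controls 1, 2 and 4 and at 2.68, 3.56, 7.09 and 3.39 FPKM in Foxl2LsL 1 to 4. Foxl2LsL 3 lay among the controls and the other 3 lay far below them, so the groups overlapped. Mean levels were 7.28 ± 0.703 FPKM (SD) over 3 controls and 4.18 ± 1.97 FPKM (SD) over 4 Foxl2LsL libraries. The log2 fold change was -0.74 (SE 0.25; limma, adjusted p 0.0458; two-sided exact permutation p 0.114).

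The call of Nnat rested on a narrow margin. It was lost in fits that left out control 1, 2 or 4 or Foxl2LsL 1, 2 or 4 (limma, adjusted p 0.0857 to 0.103), with values centred on the library median (0.0609) and with no filter on low values (0.125). Without Foxl2LsL 3 it was stronger, at -0.98 (limma, adjusted p 0.00354). Foxl2LsL 3 is also the library with the highest adipocyte markers: their sum was 202 FPKM there, against 102, 15.4 and 2.21 FPKM in Foxl2LsL 2, 4 and 1, and Adipoq, a defining adipocyte gene, was at 27.3 FPKM. Nnat was at 3.56 and 3.39 FPKM in Foxl2LsL 2 and 4, whose adipocyte sums were 102 and 15.4 FPKM. In controls 1, 2 and 4 the sums were 0.173, 7.62 and 73.1 FPKM, with Nnat at 7.30, 6.57 and 7.97 FPKM. With an adipose score as a covariate, an alternative chosen after seeing the data, Nnat changed by -0.95 (limma, adjusted p 0.00899). The part of fat content in the values of Nnat was not tested. The whole of Nnat lies inside the span of Blcap on the other strand, and the use of strand in counting is not stated. Blcap, a gene named for bladder cancer, was at 18.7 ± 2.63 and 22.1 ± 2.68 FPKM and did not pass (log2 fold change 0.23; limma, adjusted p 0.157), although it did with the adipose covariate (0.34; adjusted p 0.0168).

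H19 makes a long noncoding RNA that is the source of a microRNA and is abundant in the fetus (chromosome 7, 142575529 to 142578143, minus strand). It was at 2.47, 2.42 and 3.26 FPKM in controls 1, 2 and 4 and at 3.76, 4.52, 5.40 and 3.48 FPKM in Foxl2LsL 1 to 4. All Foxl2LsL libraries lay above all controls, although Foxl2LsL 4 and control 4 were close. The mean rose from 2.72 ± 0.475 FPKM (SD) over 3 controls to 4.29 ± 0.859 FPKM (SD) over 4 Foxl2LsL libraries, a log2 fold change of 0.50 (SE 0.15; limma, adjusted p 0.0287; two-sided exact permutation p 0.0571). The call was lost without control 1 (limma, adjusted p 0.0767), control 2 (0.0961), Foxl2LsL 2 (0.0647) or Foxl2LsL 3 (0.0614), and with no filter on low values (0.0773).

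Igf2, the paternally read fetal growth factor that lies 72.6 kilobases from H19 and shares enhancers with it, rose as well. It was at 1.08, 1.06 and 1.504 FPKM in controls 1, 2 and 4 and at 3.18, 2.44, 2.67 and 2.67 FPKM in Foxl2LsL 1 to 4, with no overlap. The log2 fold change was 0.76 (SE 0.11; limma, adjusted p 0.00213). The ratio of H19 to Igf2 was 2.28, 2.29 and 2.17 in controls and 1.18, 1.85, 2.02 and 1.30 in Foxl2LsL 1 to 4. Thus H19 lay above Igf2 in every library, and by less in every Foxl2LsL library than in any control (difference in log2 ratio -0.54, two-sided exact permutation p 0.0571, adjusted over 10 ratios 0.0714).

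Sgce encodes epsilon-sarcoglycan, a membrane glycoprotein of the dystrophin-associated complex in muscle and other tissues (chromosome 6, 4674350 to 4747207, minus strand). It was at 15.4, 18.8 and 17.2 FPKM in controls 1, 2 and 4 and at 23.4, 21.4, 22.7 and 25.7 FPKM in Foxl2LsL 1 to 4. The groups did not overlap and each was even. Means were 17.1 ± 1.71 FPKM (SD) over 3 controls and 23.3 ± 1.82 FPKM (SD) over 4 Foxl2LsL libraries, a log2 fold change of 0.42 (SE 0.09; limma, adjusted p 0.00891; two-sided exact permutation p 0.0571). Smooth muscle markers are values read beside it: 2 of 7, Myh11 (log2 fold change 1.01) and Tagln (0.77), were higher in limma, against 16.7% of all genes tested. Without control 4 all 7 smooth muscle markers were higher. The summed smooth muscle markers were at 885 to 1721 FPKM in controls and 1555 to 1992 FPKM in Foxl2LsL libraries, and the part of muscle content in the rise of Sgce was not tested.

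Sgce starts 98 bases from Peg10, a gene of retrotransposon origin read in the opposite direction and from the same parental copy. Peg10 did not rise with it: it was at 1.44 ± 0.333 and 1.119 ± 0.171 FPKM (log2 fold change -0.20; limma, adjusted p 0.238). The ratio of Sgce to Peg10 was 11.7, 10.3 and 14.4 in controls and 22.1, 16.7, 25.1 and 20.9 in Foxl2LsL libraries, without overlap (two-sided exact permutation p 0.0571, adjusted over 10 ratios 0.0714). Casd1, an enzyme that acetylates sialic acid on the other side of Sgce, was at 18.9 ± 0.705 and 20.2 ± 0.880 FPKM and did not pass (log2 fold change 0.09; limma, adjusted p 0.289). Farther along the domain, Asb4, which encodes a ubiquitin ligase subunit, fell from 4.62 ± 1.24 to 1.61 ± 0.232 FPKM (log2 fold change -1.09; limma, adjusted p 0.00172).

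**Figure D2:**
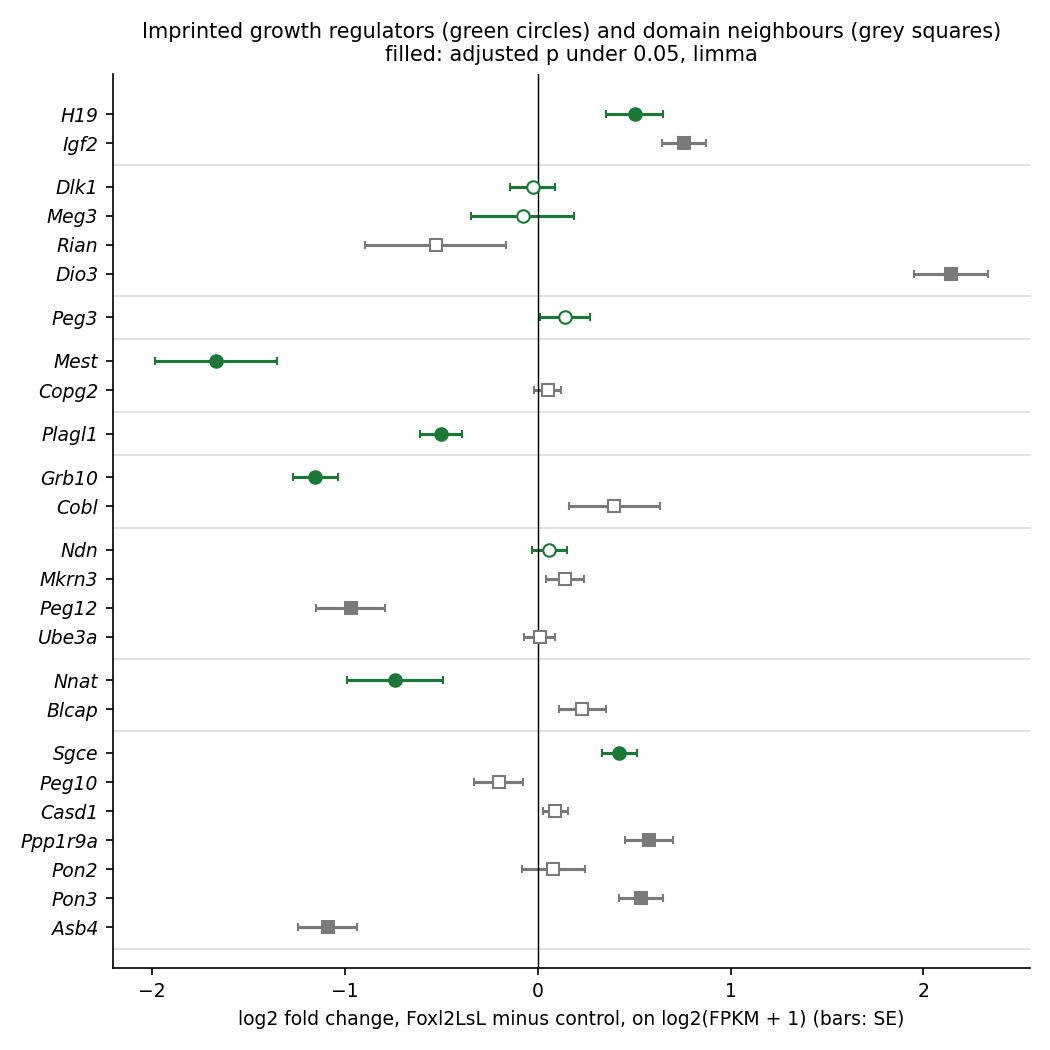
Log2 fold change (Foxl2LsL minus control, on log2(FPKM + 1), bars are SE) of the imprinted growth regulators and the tested neighbours of their chromosomal domains, with filled symbols for an adjusted p under 0.05 in limma. H19 and Igf2 lie to the right together, while Mest, Grb10 and Nnat lie to the left beside neighbours that did not pass, and Dio3 at 2.14 lies far from Meg3 at -0.08.

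Ndn encodes necdin, a MAGE family protein that restrains cell division and is lost in Prader-Willi syndrome (chromosome 7, 62346569 to 62350262, plus strand). It was at 15.6, 17.99 and 18.6 FPKM in controls 1, 2 and 4 and at 20.3, 17.2, 17.0 and 18.2 FPKM in Foxl2LsL 1 to 4. The ranges overlapped in part, with control 1 below every Foxl2LsL library and Foxl2LsL 1 above every control. The log2 fold change was 0.06 (SE 0.09; limma, adjusted p 0.622), and its sign turned to -0.01 without control 1. Of its neighbours, Magel2 had at most 3 fragments in any library and Snrpn at most 5. Peg12 fell from 1.82 ± 0.747 to 0.405 ± 0.0328 FPKM (log2 fold change -0.97; limma, adjusted p 0.00463), and the ratio of Ndn to Peg12 lay between 7.20 and 14.2 in controls and between 41.1 and 56.6 in Foxl2LsL libraries. Peg12 reached the mean of 1 FPKM asked of other genes only through the controls.

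Meg3 makes a maternally read long noncoding RNA with growth-restraining effects in cultured cells (chromosome 12, 109541001 to 109571726, plus strand). It was at 2.63, 4.60 and 7.80 FPKM in controls 1, 2 and 4 and at 4.99, 3.65, 4.23 and 4.60 FPKM in Foxl2LsL 1 to 4. The Foxl2LsL libraries all fell inside the wide range of the controls. The log2 fold change was -0.08 (SE 0.27; limma, adjusted p 0.841), and it turned to 0.24 without control 4 (limma, adjusted p 0.320). Rian, a noncoding RNA that follows Meg3 on the same strand and carries small nucleolar RNAs, was at 4.97, 9.02 and 18.1 FPKM in controls and at 7.42, 4.34, 6.16 and 7.55 FPKM in Foxl2LsL 1 to 4. It did not pass (log2 fold change -0.53; limma, adjusted p 0.278), although it did without control 1 (-0.93; adjusted p 0.0438), while without control 4 its log2 fold change was -0.094 (adjusted p 0.791). The ratio of Meg3 to Rian was 0.529, 0.510 and 0.431 in controls and 0.672, 0.839, 0.687 and 0.609 in Foxl2LsL 1 to 4. Meg3 and Rian thus ran in the same order over the controls, while their ratio was higher in every Foxl2LsL library (two-sided exact permutation p 0.0571, adjusted over 10 ratios 0.0714).

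Dio3, at the far end of the same domain and 707 kilobases from Meg3, encodes the deiodinase that inactivates thyroid hormone. It was at 0.245, 0.310 and 0.131 FPKM in controls 1, 2 and 4 and at 4.18, 3.19, 4.22 and 6.60 FPKM in Foxl2LsL 1 to 4. Every Foxl2LsL library was more than 10-fold above the highest control. The mean was 19.9-fold higher, and the log2 fold change on log2(FPKM + 1) was 2.14 (SE 0.19; limma, adjusted p 0.000373). At least 16 fragments lay on Dio3 in each library. Dio3 reached the mean of 1 FPKM asked of other genes only through the Foxl2LsL libraries.

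Dlk1 encodes a membrane protein with EGF-like repeats that holds back fat cell formation and is paternally read from the same domain (chromosome 12, 109452823 to 109463336, plus strand). It was at 0.0620, 0.0460 and 0.0760 FPKM in controls 1, 2 and 4 and at 0.0220, 0.0440, 0.0480 and 0.0550 FPKM in Foxl2LsL 1 to 4, which is 7 to 24 fragments in a library. The lowest value, in Foxl2LsL 1, has an exact Poisson 95% interval of 0.00885 to 0.0453 FPKM for counting error alone. The groups overlapped, and a difference was not detectable at this depth (limma-voom on fragments, log2 fold change -0.57, adjusted p 0.234). On the log2(FPKM + 1) scale the fold change of -0.03 says little at such a level.

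Peg3 encodes a large zinc finger protein involved in growth and maternal behaviour (chromosome 7, 6703892 to 6730431, minus strand). It was at 0.545, 0.896 and 1.04 FPKM in controls 1, 2 and 4 and at 0.961, 1.21, 0.943 and 0.911 FPKM in Foxl2LsL 1 to 4. Control 1 was the lowest of all and the other libraries were mixed. The log2 fold change was 0.14 (SE 0.13; limma, adjusted p 0.417). Usp29, a ubiquitin protease gene that starts 146 bases away in the other direction, had at most 1 fragment in any library.

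Dlk1 and Peg3 are shown with their promoters because, of the 8 members found in the RefSeq promoter table (12 windows), these are the ones whose 250 bases before the start hold a searched motif. The search covered both strands for TGTTTAC, a forkhead motif found in 3.17% of all 32841 windows, GTCAAGG, the core of a reported FOXL2 element (2.75%), and GGGGCCCC, a reported PLAGL1 motif (0.889%). Dlk1 holds the forkhead motif at 2 places, and Peg3 holds 1 match each to the FOXL2 core (reverse strand) and the PLAGL1 motif. Capitals mark the matches, which are descriptions of the letters and not evidence of binding.
Dlk1 (chr12:109452573-109452822, plus strand): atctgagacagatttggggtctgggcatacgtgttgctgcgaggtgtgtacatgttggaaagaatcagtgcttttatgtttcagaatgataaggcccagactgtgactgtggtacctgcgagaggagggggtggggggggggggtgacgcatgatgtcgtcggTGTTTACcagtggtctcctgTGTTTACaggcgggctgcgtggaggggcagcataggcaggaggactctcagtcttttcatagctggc
Peg3 (chr7:6730420-6730669, minus strand): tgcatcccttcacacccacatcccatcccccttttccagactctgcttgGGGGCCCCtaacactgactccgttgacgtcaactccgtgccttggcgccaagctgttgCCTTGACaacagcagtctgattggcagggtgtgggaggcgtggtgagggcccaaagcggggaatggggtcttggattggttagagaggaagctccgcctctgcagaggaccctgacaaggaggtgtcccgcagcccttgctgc

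None of the windows of Grb10, Mest, Plagl1, Nnat, Ndn and Meg3 held these letters, which says nothing of the factors. CpG counts of the 12 windows had a median of 9, and 10 of them were above the median of 6 over all windows. Plagl1 had 19 CpGs and Nnat 12, while the downstream start of Meg3 had none.

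Beyond single genes, members of 1 domain could be compared within a library, where library-wide scaling cancels. Of 15 pairs listed, 10 had both genes at 1 FPKM or more on average, and in 8 of these the ratio did not overlap between the groups. Each of the 8 had a two-sided exact permutation p of 0.0571, the smallest possible, and 0.0714 after Benjamini-Hochberg adjustment over the 10. Except for Meg3 to Rian, each of these 8 ratios holds a gene whose own groups did not overlap. Dio3, Peg12 and Mest reached a mean of 1 FPKM only through their higher group. The ratios of Meg3 to Dio3, Ndn to Peg12 and Mest to Copg2 were thus admitted through that difference. On their own, 47.6% of all genes tested did not overlap. The share among ratios of other gene pairs was not computed, so the count is no result about the domains. The ratio of Mest to Copg2 was 0.239, 0.492 and 0.787 in controls and 0.0674, 0.104, 0.0875 and 0.0697 in Foxl2LsL libraries. The ratio of Grb10 to Cobl was 3.83, 3.81 and 3.46 in controls, a narrow range, and 1.49, 1.13, 0.849 and 1.40 in Foxl2LsL libraries. Nnat to Blcap overlapped because of Foxl2LsL 3 (0.343 against 0.338 to 0.487 in controls), and Ndn to Mkrn3 overlapped in part (12.6 to 15.6 in controls and 10.8 to 14.5 in Foxl2LsL libraries).

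**Figure D3:**
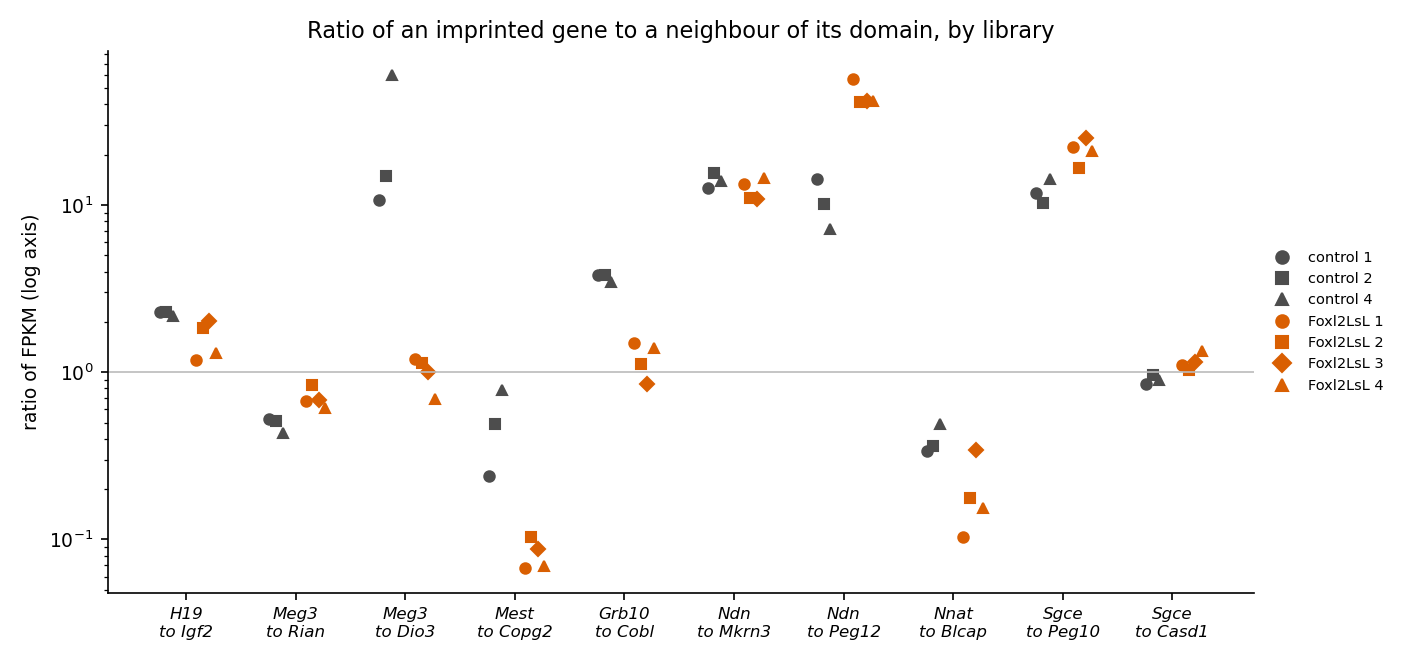
Ratio of FPKM (log axis) between an imprinted growth regulator and a neighbour of its domain in each library, with controls in grey and Foxl2LsL in orange. The ratio of Meg3 to Dio3 goes from 10.7 or more in controls to 1.19 or less in Foxl2LsL libraries, while Ndn to Mkrn3 overlaps. Dio3 reached the level asked of both genes only through the Foxl2LsL libraries.

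The domain neighbours as a list held 26 genes of the table, of which 15 were tested. In limma 4 were higher (Dio3, Igf2, Ppp1r9a and Pon3) and 2 lower (Asb4 and Peg12), against 16.7% higher and 23.9% lower among all genes tested. Regardless of direction, the share was near the 40.6% of all genes tested that passed. Dio3 and Peg12 were among the 15 tested only through the group in which they were higher. Ppp1r9a and Pon3 are named after their values were seen. A member and at least 1 tested neighbour differed in call in the domains of Mest, Grb10, Nnat and Sgce. In the domains of Meg3 and Ndn this held only through Dio3 and Peg12. The share among other neighbouring genes was not computed, so these differences are no result about the domains.

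Among the controls, Mest (2.57, 5.72 and 9.19 FPKM) and Meg3 (2.63, 4.60 and 7.80 FPKM) were the most uneven of the 10. Of the members, 8 had their highest control value in control 4, the exceptions being Plagl1 and Sgce, which were highest in control 2. For some of the 8 the lead was small, as for Ndn (18.6 against 17.99 FPKM) and Nnat (7.97 against 7.30 FPKM). The share of all genes highest in control 4 was not computed, so the count is no result about the members. The sum of the stromal markers was also highest in control 4: it was 1283, 2000 and 2833 FPKM in controls 1, 2 and 4 and 1095 to 1489 FPKM in Foxl2LsL libraries. Much of it came from Col1a1, Col1a2 and Col3a1, at 466, 460 and 773 FPKM in control 4. Pdgfrb and Thy1 were highest in control 2 instead. Of 14 stromal markers tested 6 were lower and 1 higher in limma, against 23.9% lower and 16.7% higher among all genes tested. Hand2 (log2 fold change -2.18), Thy1 (-1.96), Hoxa11 (-1.90) and Hoxa10 (-1.45) fell the most. The higher marker was Tcf21 (0.50; limma, adjusted p 0.0140). Without control 4, 5 of 10 members passed, 2 higher and 3 lower. The part of stromal content in the values of Mest, Meg3 and Grb10 was not tested.

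**Figure D4:**
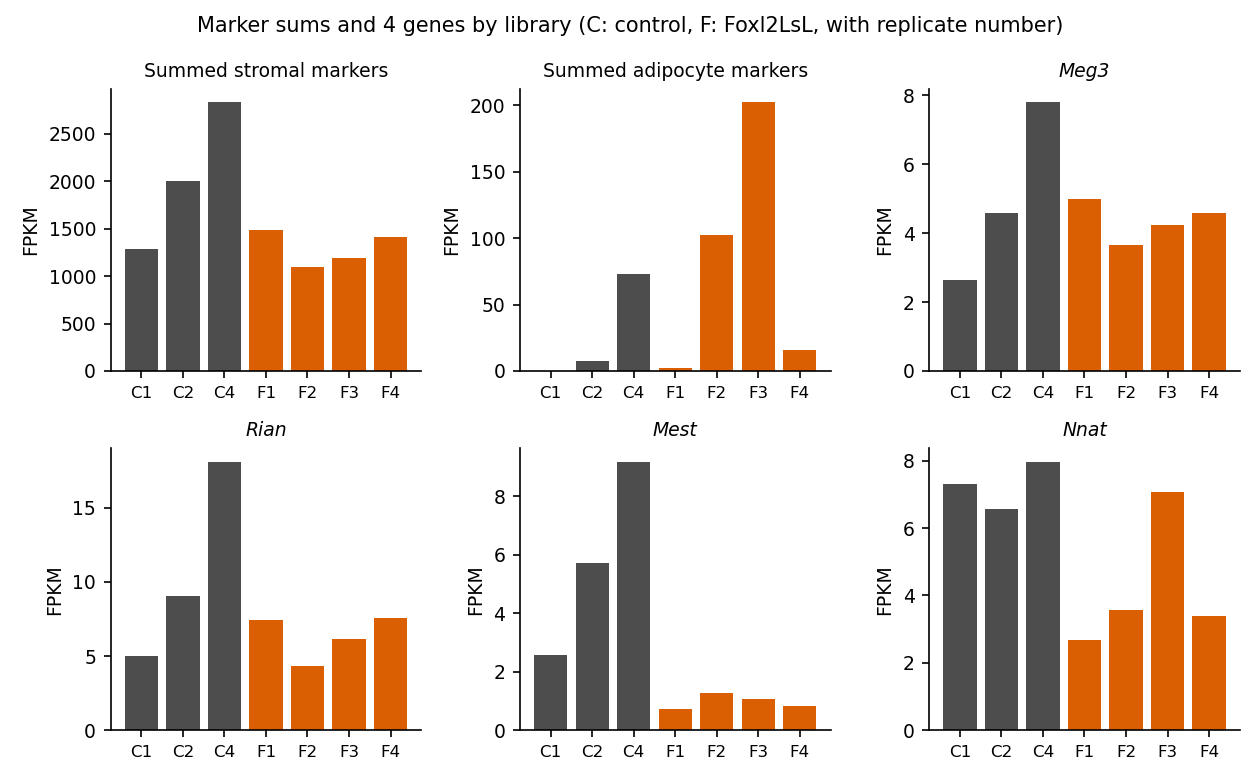
Bars give the summed FPKM of the stromal and adipocyte marker lists and the FPKM of Meg3, Rian, Mest and Nnat in each library (C control, F Foxl2LsL, with the replicate number). Control 4 is highest in the stromal sum (2833 FPKM) and in all 4 genes, and Foxl2LsL 3 is highest in the adipocyte sum (202 FPKM) and, among its group, in Nnat.

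Other marker lists were read in the same libraries, where 16.7% of all genes tested were higher and 23.9% lower. All 10 cell cycle genes tested were lower (median log2 fold change -2.27), as were 5 of 6 endothelial markers. Higher were 1 of 7 epithelial and 2 of 5 leukocyte markers, and of 2 nerve markers tested 1 was higher and 1 lower, and 1 of 3 oviduct markers was lower. Leaving out single libraries moved the leukocyte count between 1 (without any control, Foxl2LsL 1 or Foxl2LsL 4) and 3 (without Foxl2LsL 2). The oviduct call was lost without control 1, control 2, Foxl2LsL 1, Foxl2LsL 3 or Foxl2LsL 4, and 1 or both nerve calls were lost without any library but Foxl2LsL 1. Without control 1, 2 epithelial and 9 lower stromal markers passed, and without control 2 no stromal marker passed as higher. Of 5 adipocyte, 4 mesothelial and 1 ovarian markers tested, 0 passed in limma, 0 had an unadjusted p under 0.05 and 0 passed in limma-voom. With the adipose score as a covariate the same count of 6 members passed, with Mest at -1.91, Grb10 at -1.25, H19 at 0.37, Sgce at 0.44 and Plagl1 at -0.54 on the log2 scale.

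RNA levels were also read for a list of 15 insulin and IGF genes, which do not measure the signalling that Grb10 restrains. Of these, 14 were tested, 3 higher and 6 lower in limma, against 16.7% higher and 23.9% lower among all genes tested. The receptor genes Igf1r (6.62 ± 0.499 to 11.4 ± 2.27 FPKM) and Insr (7.67 ± 0.555 to 9.74 ± 0.428 FPKM) rose, beside Igf2. Both receptor genes are named after their values were seen. Igf2r, the imprinted receptor that clears IGF2, fell from 20.1 ± 2.01 to 16.0 ± 0.877 FPKM (log2 fold change -0.31; limma, adjusted p 0.0211), a call lost without control 1 (0.0572), control 2 (0.0595) or Foxl2LsL 3 (0.0592). Of 6 binding protein genes 4 fell, Igfbp4 from 356 ± 99.4 to 132 ± 6.998 FPKM, Igfbp7 from 360 ± 103 to 163 ± 11.9 FPKM and Igfbp2 from 2.62 ± 0.752 to 0.745 ± 0.334 FPKM, and Igfbp6, named after its values were seen, from 125 ± 17.9 to 93.3 ± 9.43 FPKM. The call of Igfbp6 (limma, adjusted p 0.0277) was lost without control 2, control 4, Foxl2LsL 1, Foxl2LsL 2 or Foxl2LsL 3 and with no filter on low values (0.0615 to 0.0736). Igfbp2 reached the mean of 1 FPKM asked of other genes only through the controls. Igfbp3 and Igfbp5 did not pass, and the sign of each turned when some single libraries were left out. Htra1, a secreted protease that cuts IGF binding proteins, fell from 58.3 ± 10.6 to 30.7 ± 2.86 FPKM. Igf1, at 9.90, 21.3 and 45.5 FPKM in controls 1, 2 and 4 and 9.79 to 13.3 FPKM in Foxl2LsL libraries, did not pass (log2 fold change -0.85; limma, adjusted p 0.142). Without control 1 it passed (-1.37; adjusted p 0.0106), and without control 4, its highest library, it was at -0.33 (adjusted p 0.367).

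Among 23 other imprinted genes and genes tied to the network, 19 were tested, and 9 were higher and 4 lower in limma. The 9 include Slc38a4, at 0.700 FPKM in controls and 2.02 FPKM in Foxl2LsL libraries on average. It reached the mean of 1 FPKM asked of other genes only through the Foxl2LsL libraries. Of all genes tested 16.7% were higher and 23.9% lower. Cdkn1c, an inhibitor of cyclin-dependent kinases, fell with Plagl1: it was at 18.9, 24.1 and 16.9 FPKM in controls 1, 2 and 4 and at 6.34, 11.5, 8.71 and 8.25 FPKM in Foxl2LsL 1 to 4 (log2 fold change -1.12, SE 0.19; limma, adjusted p 0.00319). Gatm, a creatine synthesis enzyme, fell from 18.9 ± 0.630 to 6.09 ± 0.562 FPKM (log2 fold change -1.49). Dcn, the matrix proteoglycan decorin, rose from 411 ± 50.6 to 978 ± 57.2 FPKM (1.25), and Kcnq1, a potassium channel in the domain of Cdkn1c, rose from 6.28 ± 0.392 to 14.0 ± 2.40 FPKM (1.03). Kcnq1 and Cdkn1c thus lay on opposite sides of 0.

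**Figure D5:**
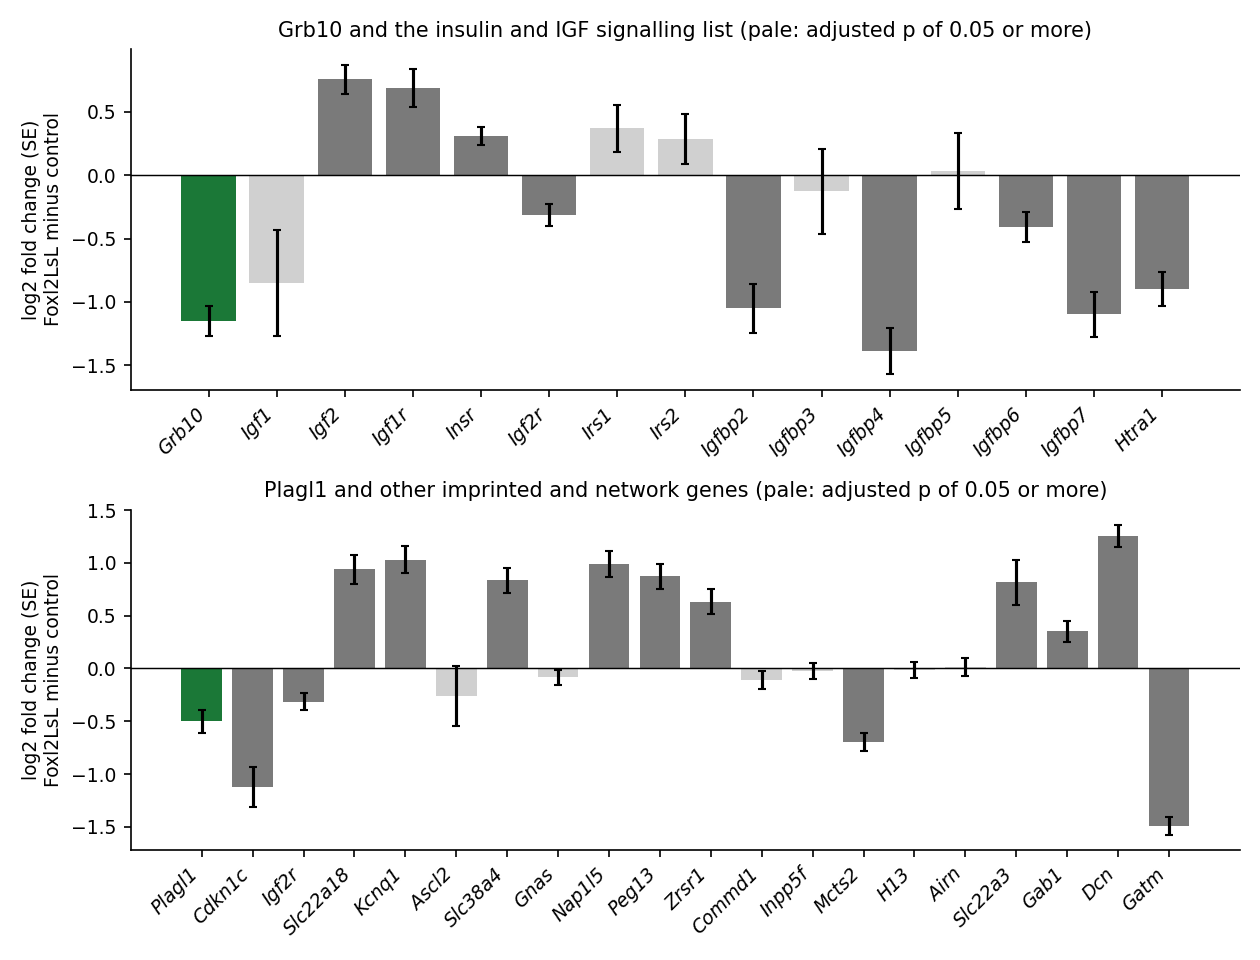
Bars give the log2 fold change (Foxl2LsL minus control, on log2(FPKM + 1), whiskers are SE) of the tested insulin and IGF genes beside Grb10, and of the tested network genes beside Plagl1. Grb10 at -1.15 stands with Igfbp4 at -1.39 and Igfbp7 at -1.10 below 0, and Igf2 at 0.76 and Igf1r at 0.69 stand above it.

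The genes whose pattern over the 7 libraries was nearest to a member were found by the mean absolute difference in log2(FPKM + 1) after centring each gene. For Mest these were Gria4 (0.07), a glutamate receptor subunit, and Map2 (0.12), a microtubule-associated protein. Gria4 was at 2.28, 5.16 and 8.23 FPKM in controls 1, 2 and 4 and at 0.733 to 0.922 FPKM in Foxl2LsL libraries. It shares the unevenness of Mest over the controls because it was picked for likeness to Mest in these libraries. Grb10 was nearest to Eogt (0.08) and Piezo2 (0.08), and Plagl1 to Rrp15 (0.03) and Nup188 (0.04). H19 was nearest to Apbb1 (0.05) and Tk2 (0.07), and Sgce to Dagla (0.03) and Pfkfb4 (0.04). Nnat had no near match, the closest genes being Hr (0.17) and B230208H11Rik (0.17). Both were picked for likeness to Nnat in these libraries. With that choice, both were also highest of their group in Foxl2LsL 3, at 1.85 and 0.741 FPKM. Unlike Nnat, they stayed there below their lowest controls, at 2.91 and 1.775 FPKM. Gria4, Map2 and B230208H11Rik reached the mean of 1 FPKM asked of other genes only through the controls. These likenesses describe 7 libraries and were not tested.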

How the data were processed

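RNA was extracted with TRIzol from whole uterus and sequenced on libraries made in the usual Illumina way (per the labels' protocols). The authors deposited 1 table of FPKM values with another value, gene length in bases, per the file headers. STAR 2.5.2b, featureCounts 1.5.0-p1 (Subread), DESeq2 1.12.4 and the build mm10 are named in the submitters' processing notes, without their order. Strand setting and filters are not given in the sources used here. FPKM divides by the whole library, so strong rises lower other values. Multiplied by length, FPKM fell on whole multiples of a step in each library, with 100% of 1326 to 1467 low values lying within 0.1 of an integer (20% by chance). Fragments were recovered from these steps. Intervals cover counting error only.

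FPKM was compared as log2(FPKM + 1), where folds of low genes are understated, with limma 3.58.1 in R 4.3.3 (intensity trend, Benjamini-Hochberg over 13336 genes, threshold 0.05). Tested were genes with a mean of at least 1 FPKM, and the 10 members whatever their level. That mean was taken over all 7 libraries, so genes such as Dio3, Peg12 and Igfbp2 were admitted only through their higher group. The limma step was run on simulated data as a check of the code. That simulation changed far fewer genes than passed here and gave every gene the same added spread. It therefore does not measure how reliable the calls in these data are. Exact permutation tests used all 35 splits, and other steps Python 3.11.15. Loci came from GENCODE M21 (GRCm38) by symbol, promoters from RefSeq (GRCm38.p6). All 10 members were named, also 12 genes whatever their result, up to 4 non-overlapping genes per list with the largest change, and 2 nearest genes per called member. From cell type lists mainly counts are given. The members and lists were chosen with earlier results of these data known. Alternatives were other scalings, pseudocount, filters, limma-voom, no trend, a replicate block, each library left out and, added after seeing the data, an adipose covariate.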

Additional observations from a re-analysis of the deposited data

Results flagged for a closer look

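In 75 groups of 4 Foxl2LsL values, 4 had a library far from the other 3, and chance gives about 1 in 20. The gap of that library to its nearest neighbour, as a share of the range, was 0.833 for Peg3, where Foxl2LsL 2 was high at 1.21 FPKM against 0.911 to 0.961 FPKM. It was 0.942 for the ratio of Ndn to Peg12, where Foxl2LsL 1 was high at 56.6 against 41.1 to 42.0. It was 0.852 for Igfbp4, where Foxl2LsL 4 was high at 142 FPKM against 127 to 129 FPKM. For Usp29 it was 1.0, from a single fragment in 1 library.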

How the results depend on the processing

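Each member was refitted under 16 alternatives. Grb10, Mest, Plagl1 and Peg3 kept their direction and their side of the threshold in all of them. Without a filter on low values H19 (0.50; adjusted p 0.0773) and Nnat (-0.74; adjusted p 0.125) lost their calls, leaving 1 member higher; more genes are tested there. With values centred on the library median, Nnat was -0.69 (adjusted p 0.0609) and Dlk1 turned to 0.025. Centring also moved the share of higher genes among all called from 41.1% to 50.4%. When 1 of the 7 libraries was left out at a time, H19 ranged from 0.41 to 0.61, Nnat from -0.98 to -0.60, Meg3 from -0.39 to 0.24, Ndn from -0.013 to 0.11 and Foxl2 from -0.10 to 0.28, the number of members higher from 1 to 2, members lower from 3 to 4 and members called from 4 to 5, and all genes called from 3853 to 5329. Where calls were lost the cause was not tested. With the replicate block on the libraries numbered 1, 2 and 4, which uses 6 libraries, 3241 genes passed against 5408, H19 (0.41; limma, adjusted p 0.117) and Sgce (0.43; limma, adjusted p 0.0566) lost their calls, as did Igf2r (0.0863), Igfbp2 (0.0520), Igf1r (0.0636), Insr (0.0756), Pon3 (0.0734), Apbb1 (0.0577), Dagla (0.0862) and Pfkfb4 (0.0574), and 0 members were higher while 4 were lower (limma). Deviations of same-numbered libraries correlated at 0.228, -0.0306 and -0.112, and 1 of 3 controls correlated best with its own number. These values showed no pairing by number, but with so few libraries they cannot exclude it. Of 51 other genes named by the rule, 39 kept direction and call throughout and only Foxl2 changed direction. Igfbp3 and Igfbp5, outside the rule, changed direction too. Depth limits Dlk1, with at most 24 fragments in a library.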
